A study of Mus musculus with 7 samples.

Results

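The 9 genes described here, *Dusp4*, *Dusp5*, *Dusp6*, *Spry1*, *Spry2*, *Spry4*, *Spred1*, *Etv4* and *Etv5*, are known feedback targets of the kinase ERK, and were taken by symbol as 9 of the 29267 genes in the expression tables. All 9 symbols matched 1 protein-coding Ensembl gene each. ERK stands at the end of the Ras-Raf-MEK cascade that FGF and other growth factors switch on. Among the genes it induces are its own brakes: phosphatases of the Dusp family remove phosphate from ERK and related kinases, whereas Sprouty and Spred proteins act further up the cascade, on the activation of Ras and Raf. Etv4 and Etv5 are ETS transcription factors that are widely read as targets of FGF signaling. In mouse pluripotent stem cells (PSCs), ERK signaling is known for promoting exit from the naive state, and a MEK inhibitor is a standard part of naive medium. Here only mRNA was measured, not the activity of ERK.

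The study asked how a chemically defined medium, 5C, changes reprogramming and which pluripotent state it gives. OG2 mouse embryonic fibroblasts (MEFs) carry a GFP reporter under the *Oct4* promoter and its distal enhancer. They were infected with retroviruses for *Oct4*, *Sox2*, *Klf4* and *c-Myc*. They were then kept in conventional mES medium, which holds serum, or in serum-free 5C medium, which holds bFGF. LIF and vitamin C are in both media. Cells from each medium were sorted by the reporter, which gave Oct4GFP+ and Oct4GFP- fractions (named mES-Oct4GFP+ and mES-Oct4GFP- for mES medium, 5C-Oct4GFP+ and 5C-Oct4GFP- for 5C medium). 5C-Oct4GFP+ cells were converted in naive medium, which holds LIF, the GSK3 inhibitor CHIR99021 and the MEK inhibitor PD0325901, or in primed medium, and the sample labels give both lines as passage 20, although the study's text also describes these cells after only days in the new medium, so the time of harvest is uncertain. R1 ESCs-primed, primed PSCs made from the embryonic stem cell line R1 on MEF feeders, were the reference, also labelled passage 20. Of the media listed in the study's methods for these groups, only naive medium holds a MEK inhibitor, and bFGF is listed for 5C and primed medium. R1 ESCs-primed were later kept with CHIR99021 and a Wnt inhibitor in place of bFGF and activin A, and which form of primed medium the 5C-Oct4GFP+ (primed) cells were in at harvest was not given in the sources used here. The 6 other groups share the OG2 reporter and the retroviral factors. Per the paper, 5C-Oct4GFP+ cells lost the GFP signal in primed medium, so the name of that library gives its origin. The Oct4GFP- cells are whatever did not express the reporter, and can hold fibroblasts, partly reprogrammed cells and others.

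There was 1 library per group, so no difference below has a replicate check and no statistical test was made. Levels are TPM (transcripts scaled to a common total, which corrects for gene length and depth), and a difference between libraries is that of log2(TPM + 1), which understates the change of low genes. A gene entered a comparison, and is counted below as a gene tested, if 1 of the libraries or both gave it 1 TPM or more, and it was called higher or lower if the difference was at least 2-fold. Ratios of TPM are given with an exact 95% interval (Clopper-Pearson), and levels with an exact Poisson interval, from the read counts, and these intervals cover counting error only. The libraries held 6108252 to 11496615 reads. The members together took between 0.0587% and 0.137% of the reads of a library. Summed TPM of 10 fibroblast markers was 544 in mES-Oct4GFP-, 311 in 5C-Oct4GFP-, 235 in R1 ESCs-primed, 82.6 in the other primed library and only 11.8 to 16.6 in the naive library and both Oct4GFP+ fractions. Summed TPM of 9 naive markers was 2526 in mES-Oct4GFP+, 2313 in 5C-Oct4GFP+ (naive), 1260 in 5C-Oct4GFP+ and between 90.5 and 215 in the rest. Summed TPM of 9 primed markers was 2121 in 5C-Oct4GFP+ (primed), 1913 in R1 ESCs-primed, 737 in 5C-Oct4GFP+ and between 172 and 271 in the rest. Summed TPM of 7 general pluripotency markers was 9707 in 5C-Oct4GFP+, 6734 in the naive library, 6395 in mES-Oct4GFP+, 4296 in mES-Oct4GFP-, 3213 and 3167 in the primed libraries and 2662 in 5C-Oct4GFP-. Summed TPM was 2.04 to 178 for 5 primitive endoderm markers, 12.8 to 126 for 5 trophoblast markers and 9.22 to 56.7 for 4 blood markers. The naive and primed labels thus went with their markers, and the Oct4GFP+ label with more naive and fewer fibroblast markers. *Pou5f1* itself encodes Oct4, and its promoter with the distal enhancer drives the sorted reporter. Its level did not follow the sort in mES medium: it was highest in mES-Oct4GFP- at 3640 TPM and lowest in mES-Oct4GFP+ at 1321, against 2429 in 5C-Oct4GFP+ and 1534 in 5C-Oct4GFP-. Reads from the retroviral *Oct4*, *Sox2* and *c-Myc* cannot be told apart from those of the endogenous genes, so these levels do not check the sort.

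Promoter sequences were at hand for 6 members, *Dusp5*, *Dusp6*, *Spry1*, *Spry2*, *Spred1* and *Etv5*, from RefSeq (GRCm38.p6), each as a window of 300 bases from 250 before to 50 after the transcription start. ERK reaches its target genes largely through ETS factors, whose core letters are GGAA (TTCC on the other strand), and through serum response factor, which binds the CArG box together with ETS partners. The 3 windows below are shown because *Dusp5* had the widest range over the libraries on the log2(TPM + 1) scale, *Dusp6* was highest in the primed libraries, and *Spry2* had the narrowest on that scale. They are printed in the direction of transcription with the named motif in capitals.

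Dusp5, chr19:53528895-53529194, plus strand, CArG boxes in capitals: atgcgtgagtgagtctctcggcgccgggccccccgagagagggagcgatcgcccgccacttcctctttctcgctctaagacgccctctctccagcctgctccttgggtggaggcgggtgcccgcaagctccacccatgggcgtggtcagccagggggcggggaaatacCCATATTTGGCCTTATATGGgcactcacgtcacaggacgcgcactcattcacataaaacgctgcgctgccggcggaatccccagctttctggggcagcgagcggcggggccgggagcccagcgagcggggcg
Dusp6, chr10:99262981-99263280, plus strand, GGAA or TTCC in capitals: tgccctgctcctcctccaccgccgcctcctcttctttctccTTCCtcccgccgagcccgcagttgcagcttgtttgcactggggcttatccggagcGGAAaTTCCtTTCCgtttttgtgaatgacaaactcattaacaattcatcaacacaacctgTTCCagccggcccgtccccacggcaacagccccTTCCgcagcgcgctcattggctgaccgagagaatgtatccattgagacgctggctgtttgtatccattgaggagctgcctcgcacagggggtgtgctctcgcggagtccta
Spry2, chr14:105896770-105897069, minus strand, CCGGAA in capitals: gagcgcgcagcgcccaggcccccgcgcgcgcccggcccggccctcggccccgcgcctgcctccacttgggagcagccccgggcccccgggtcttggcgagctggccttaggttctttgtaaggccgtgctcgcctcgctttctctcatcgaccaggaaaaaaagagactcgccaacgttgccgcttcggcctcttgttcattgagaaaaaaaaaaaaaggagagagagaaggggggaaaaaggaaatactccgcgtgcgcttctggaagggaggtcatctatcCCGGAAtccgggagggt

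*Dusp5* was the only member of the 6 with a CArG box, and it held a pair that touch each other, from -82 to -73 and from -72 to -63 relative to the start. Of all 32851 promoters of this length, 1.63% held a CArG box on either strand. CCGGAA, a longer ETS core that contains GGAA, was found on either strand in 14.9% of all promoters and among the members only in *Spry2*, from 33 to 38 after the start. GGAA or TTCC was found in all 6 members, with 6 matches in *Dusp6*, but also in 96% of all promoters. These matches are letters in a window and do not show binding.

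Of the ERK phosphatases, *Dusp6* (chr10:99263231-99267489; gene coordinates are in GRCm38) encodes a cytoplasmic phosphatase that acts largely on ERK itself. *Dusp6* was highest in 5C-Oct4GFP+ (primed) at 135 TPM, then R1 ESCs-primed at 125, 5C-Oct4GFP- at 119, 5C-Oct4GFP+ at 73.7, mES-Oct4GFP- at 34.7, 5C-Oct4GFP+ (naive) at 7.0 and mES-Oct4GFP+ at 3.53. It was thus lowest in the mES-Oct4GFP+ and naive libraries and highest in both primed libraries, a span of 38.3-fold. R1 ESCs-primed and 5C-Oct4GFP- could not be told apart by counting error (ratio 1.05, interval 0.973 to 1.13), whereas the other neighbors in this order could.

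*Dusp4* (chr8:34807297-34819894) encodes a nuclear phosphatase of ERK and other MAP kinases. *Dusp4* was highest in R1 ESCs-primed at 62.6 TPM, then mES-Oct4GFP- at 59.9, 5C-Oct4GFP- at 47, 5C-Oct4GFP+ (primed) at 41.5, 5C-Oct4GFP+ at 37.8, 5C-Oct4GFP+ (naive) at 0.24 and mES-Oct4GFP+ at 0.23. This was close to an on-off pattern: the 5 higher libraries lay between 37.8 and 62.6 TPM, and the lowest 2 rested on 2 reads in mES-Oct4GFP+ (interval 0.0273 to 0.814 TPM) and 3 reads in the naive library (interval 0.0491 to 0.696 TPM).

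*Dusp5* (chr19:53529109-53542431) encodes a nuclear phosphatase specific for ERK, and had the widest range of the members on the log2(TPM + 1) scale (6.38). *Dusp5* was highest in mES-Oct4GFP- at 141 TPM, then 5C-Oct4GFP- at 59.6, 5C-Oct4GFP+ at 31.5, R1 ESCs-primed at 23.7, 5C-Oct4GFP+ (primed) at 17.8, mES-Oct4GFP+ at 2.63 and 5C-Oct4GFP+ (naive) at 0.71. Its order differed from those of *Dusp4* and *Dusp6*, since both Oct4GFP- libraries came first, ahead of 5C-Oct4GFP+ and of both primed libraries. Every pair of neighbors in this order was separated by more than counting error, and the span was 199-fold, with 8 reads in the naive library and 1496 in mES-Oct4GFP-. As a ratio of TPM, the spans of *Dusp4* (272-fold) and *Spry4* (211-fold) were wider.

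The Sprouty genes did not all share a pattern. *Spry4*, a Sprouty commonly used as an FGF readout, was highest in 5C-Oct4GFP- at 84.4 TPM, then mES-Oct4GFP- at 26.6, 5C-Oct4GFP+ at 22.5, R1 ESCs-primed at 21, 5C-Oct4GFP+ (primed) at 11.8, 5C-Oct4GFP+ (naive) at 1.92 and mES-Oct4GFP+ at 0.40. It stood out in 5C-Oct4GFP-, at 3.17-fold the next library, and was lowest in mES-Oct4GFP+ with 6 reads, against 41 in the naive library. *Spry1* (chr3:37639947-37644598), another receptor tyrosine kinase antagonist, was highest in 5C-Oct4GFP- at 34.1 TPM, then 5C-Oct4GFP+ at 30.95, R1 ESCs-primed at 25.2, 5C-Oct4GFP+ (primed) at 20.9, mES-Oct4GFP- at 16, 5C-Oct4GFP+ (naive) at 4.93 and mES-Oct4GFP+ at 4.22. Both 5C libraries were highest and did not differ beyond counting error, nor did the mES-Oct4GFP+ and naive libraries at the low end.

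*Spry2* (chr14:105891947-105896819) went another way. *Spry2* was highest in 5C-Oct4GFP+ at 107 TPM, then R1 ESCs-primed at 85.0, 5C-Oct4GFP- at 82.4, mES-Oct4GFP+ at 76.7, 5C-Oct4GFP+ (primed) at 76.7, 5C-Oct4GFP+ (naive) at 72.7 and mES-Oct4GFP- at 35.6. mES-Oct4GFP- was the only library set apart at the low end, and 5C-Oct4GFP+ at the high end. None of the neighbors among the other 5 libraries differed beyond counting error, and these 5 included mES-Oct4GFP+ and the naive library, in which *Spry1* and *Spry4* were lowest. At the ends of this run, the intervals of R1 ESCs-primed (78.6 to 91.8 TPM) and the naive library (67.4 to 78.3 TPM) did not overlap. *Spred1* (chr2:117121374-117182279), a Sprouty-related protein that recruits the Ras inactivator neurofibromin, was highest in 5C-Oct4GFP- at 68.1 TPM, then mES-Oct4GFP- at 47.1, R1 ESCs-primed at 46.4, 5C-Oct4GFP+ at 32.8, 5C-Oct4GFP+ (primed) at 32.1, 5C-Oct4GFP+ (naive) at 15.2 and mES-Oct4GFP+ at 14.3. The order of *Spred1* was close to that of *Spry4*, with both Oct4GFP- libraries highest, over a smaller span of 4.78-fold.

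Of the ETS factors, *Etv4* (chr11:101769742-101785371) was highest in R1 ESCs-primed at 113 TPM, then 5C-Oct4GFP+ (primed) at 100.5, 5C-Oct4GFP- at 92.1, 5C-Oct4GFP+ at 52.6, mES-Oct4GFP- at 26.9, 5C-Oct4GFP+ (naive) at 25.5 and mES-Oct4GFP+ at 17.9. As for *Dusp6*, both primed libraries were highest, although the 5C-derived one did not differ from 5C-Oct4GFP- beyond counting error (ratio 1.09, 0.991 to 1.20). The mES-Oct4GFP- and naive libraries did not differ beyond counting error. *Etv4* has 12 annotated transcripts, and the estimated effective length differed between libraries (1397 to 2076 bases), so its TPM also depends on how reads were shared among isoforms. *Etv5* (chr16:22381309-22439719) was highest in 5C-Oct4GFP+ at 383 TPM, then 5C-Oct4GFP- at 228, mES-Oct4GFP+ at 213, 5C-Oct4GFP+ (naive) at 192, mES-Oct4GFP- at 180, R1 ESCs-primed at 139 and 5C-Oct4GFP+ (primed) at 128. *Etv5* was unlike *Etv4*: it was highest in 5C-Oct4GFP+, lowest in both primed libraries, and intermediate in mES-Oct4GFP+ and the naive library. *Etv5* had the highest TPM of the members in 6 of 7 libraries and made up 64.0% of the summed TPM of the members in mES-Oct4GFP+, against 21.7% in R1 ESCs-primed, so a plain sum would mostly follow *Etv5*. Without *Etv5* and *Spry2*, the sum was 43.1 TPM in mES-Oct4GFP+ and 55.5 in the naive library, and between 282 (5C-Oct4GFP+) and 505 (5C-Oct4GFP-) in the other 5.

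**Figure D1:**
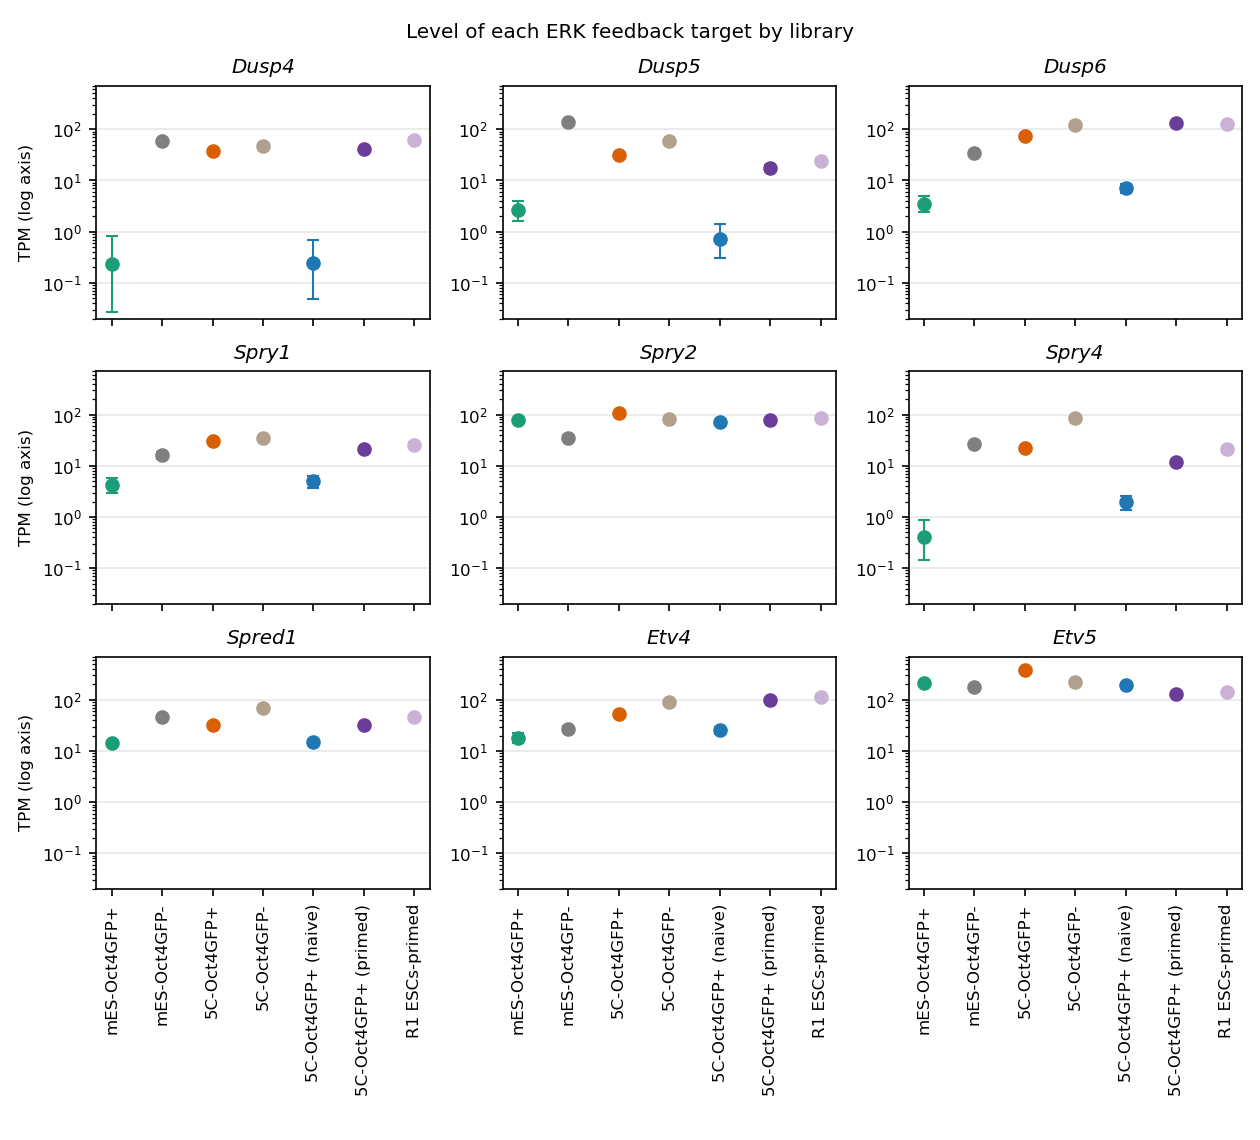
Level of each of the 9 ERK feedback targets in the 7 libraries, in TPM on a log axis, with exact 95% Poisson intervals as bars (counting error only). For 7 members the mES-Oct4GFP+ and 5C-Oct4GFP+ (naive) points are the lowest 2, down to 0.23 TPM for Dusp4, whereas Spry2 and Etv5 stay between 35.6 and 383 TPM in all libraries.

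Most members thus shared their lowest libraries. For 7 of 9 members the mES-Oct4GFP+ and 5C-Oct4GFP+ (naive) libraries held the lowest 2 values, the exceptions being *Spry2* and *Etv5*. The same held for 20.7% of all 17733 genes that reached 1 TPM in any library, and for 23.6% of the 13773 that also ranged over at least 2-fold. It held for 5 of 10 other Dusp, Spred and Etv genes and for 11 of 17 other genes known to be induced by ERK (*Dusp1* is in both lists). As a description over these 7 libraries, the Pearson correlation of a member with the mean of the other members, on log2(TPM + 1), was 0.98 for *Spry1*, 0.95 for *Dusp4*, 0.94 for *Spry4* and *Spred1*, 0.92 for *Dusp6*, 0.82 for *Dusp5* and 0.75 for *Etv4*, but 0.01 for *Spry2* and -0.03 for *Etv5*. These values share libraries, depth and the contrast of the lowest 2 libraries with the rest.

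The first comparison asked how Oct4GFP+ cells made in the 2 media differed. In 5C-Oct4GFP+ cells, 7 of 9 members were at least 2-fold higher than in mES-Oct4GFP+ cells and none was lower, against 13.7% of all genes tested higher and 13.5% lower. The members' median difference was 2.61 on the log2 scale, against -0.06 for all genes tested. *Dusp6* was 20.9-fold higher (interval 14.7 to 30.7), *Spry4* 56.3-fold (25.7 to 154), *Dusp5* 12-fold (7.73 to 19.5) and *Spry1* 7.33-fold (5.20 to 10.7). *Dusp4* had a ratio of 164, with an interval from 46.2 to 1388 because only 2 reads stood on the mES side. *Etv4* (2.95-fold, 2.34 to 3.76) and *Spred1* (2.30-fold, 2.02 to 2.64) were less far apart. *Etv5* (1.80-fold, 1.72 to 1.88) and *Spry2* (1.39-fold, 1.25 to 1.54) were also higher in 5C-Oct4GFP+ but under 2-fold, so that all 9 members pointed the same way. Of the primed markers, 6 of 8 tested were higher and 1 lower in the same comparison, and of the naive markers 4 of 9 were lower and none higher. Their part in the result was not tested. The fibroblast marker sums of these libraries were 11.8 and 15.5 TPM, far under those of the Oct4GFP- libraries.

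The same change of medium gave another picture in Oct4GFP- cells. In 5C-Oct4GFP- cells, 5 members were higher than in mES-Oct4GFP- cells and 1 was lower, against 9.68% and 10.1% of all genes tested. The median difference of the members was 1.05, against 0.03 for all genes. *Dusp6* (3.44-fold, 3.08 to 3.84), *Etv4* (3.43-fold, 2.96 to 3.98), *Spry4* (3.17-fold, 2.88 to 3.51), *Spry2* (2.32-fold, 2.03 to 2.65) and *Spry1* (2.13-fold, 1.77 to 2.57) were higher with 5C medium. *Dusp5* was 2.37-fold lower (2.16 to 2.61), and *Dusp4* was 1.27-fold lower (1.14 to 1.43), which is under 2-fold. *Dusp6*, *Spry1*, *Spry4* and *Etv4* were thus higher with 5C medium in both sorted fractions, as were 2.73% of the 13903 genes tested in both. *Dusp5* was at least 2-fold higher with 5C medium in Oct4GFP+ cells and at least 2-fold lower in Oct4GFP- cells, as were 2.11%. The fibroblast markers went with this comparison as well, with 5 of 10 lower in 5C-Oct4GFP- cells and 1 higher, and a sum of 311 against 544 TPM. So did other markers: 4 of 5 primitive endoderm markers (sum 14.5 against 74.3 TPM) and 4 of 5 trophoblast markers (12.8 against 29.4 TPM) were lower in 5C-Oct4GFP- cells, and 5 of 9 naive markers were higher (215 against 90.5 TPM), with none the other way. Their part was not tested, and in such bulk libraries fewer cells of a type and less RNA per cell cannot be told apart.

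Sorting by the reporter separated the members more in mES medium than in 5C medium. So it did for all genes tested, with 46.7% past 2-fold in mES medium against 31.0% in 5C medium. In mES-Oct4GFP+ cells, 6 members were lower than in mES-Oct4GFP- cells, against 28.8% of all genes tested, and 1, *Spry2*, was higher (2.16-fold, 1.87 to 2.49), against 17.9%. The median of the members was -1.70, against -0.15 for all genes. *Dusp5* was 53.7-fold lower (35.0 to 87.1), *Spry4* 66.5-fold (30.4 to 182), *Dusp6* 9.83-fold (6.86 to 14.6), *Spry1* 3.79-fold (2.63 to 5.63) and *Spred1* 3.31-fold (2.90 to 3.78). For *Dusp4* the mES-Oct4GFP- to mES-Oct4GFP+ ratio was 260 (73.4 to 2201), again with 2 reads on one side. *Etv4* (1.5-fold lower, 1.17 to 1.95) and *Etv5* (1.18-fold higher, 1.12 to 1.25) were under 2-fold.

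In 5C medium, only *Spry4* (3.75-fold, 3.41 to 4.13) and *Spred1* (2.07-fold, 1.92 to 2.24) were at least 2-fold lower in Oct4GFP+ than in Oct4GFP- cells, against 22.6% of all genes tested, and none was higher, against 8.45%. These counts are near the shares of all genes and say little about the members. The median was -0.69, against -0.25 for all genes. *Spred1* lay near the threshold, and its call was lost under other scalings. *Dusp6* was 1.62-fold lower (1.49 to 1.75) and *Etv5* 1.68-fold higher (1.62 to 1.75). *Dusp4* was 1.24-fold lower (1.10 to 1.40), where the same sort in mES medium gave a ratio of 260. *Spry1* did not differ beyond counting error (1.10-fold lower, 0.955 to 1.27), and its sign turned under median-ratio rescaling. In both media the sort also separated the fibroblast markers: 10 of 10 were lower in Oct4GFP+ cells in mES medium and 9 of 9 tested in 5C medium. Of the primitive endoderm markers, 5 of 5 were lower in mES medium and 3 of 5 in 5C medium, and all 9 naive markers were higher in both. Whether this bears on the members was not tested.

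**Figure D2:**
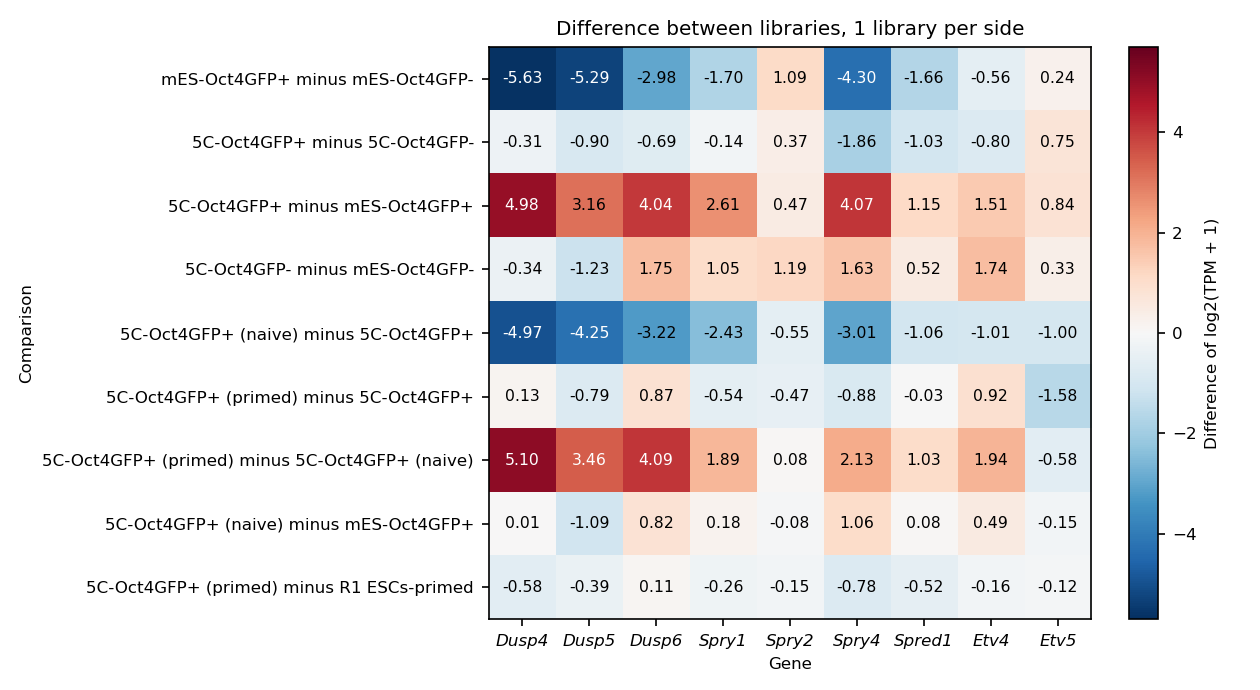
Difference of log2(TPM + 1) of each member in 9 comparisons of 1 library with 1 library, red for higher in the first library and blue for lower. The 5C-Oct4GFP+ against mES-Oct4GFP+ line is positive for all 9 members (0.47 to 4.98) and the naive against 5C-Oct4GFP+ line is negative for all 9 (-4.97 to -0.55), whereas the line of 5C-Oct4GFP+ (primed) against R1 ESCs-primed stays within -0.78 to 0.11.

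The next comparisons followed 5C-Oct4GFP+ cells after conversion. In naive medium, 7 of 9 members were at least 2-fold lower than in 5C-Oct4GFP+ cells and none was higher, against 17.5% lower and 10% higher among all genes tested. The median of the members was -2.43, against -0.10. *Dusp5* was 44.3-fold lower (22.4 to 104), *Spry4* 11.7-fold (8.52 to 16.5), *Dusp6* 10.5-fold (8.5 to 13.2) and *Spry1* 6.28-fold (4.75 to 8.42). For *Dusp4* the ratio of 5C-Oct4GFP+ to naive was 157 (54.0 to 771), with 3 reads in the naive library. *Spred1* (2.16-fold, 1.93 to 2.43) and *Etv4* (2.06-fold, 1.74 to 2.45) lay just past the threshold, and both calls were lost with FPKM and with median-ratio rescaling, which left 5 members past 2-fold, whereas *Etv5*, with a difference of -1.0 and a ratio of 2.0 (1.92 to 2.08), lay just short of it. *Spry2* was 1.47-fold lower (1.33 to 1.61). All 9 differences were negative. Of the primed markers, 6 of 8 tested were lower and 1 higher in naive medium, and of the naive markers 3 of 9 were higher and 1 lower, and their part was not tested.

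Conversion in primed medium moved the members less and in both directions. Only *Etv5* was at least 2-fold lower in 5C-Oct4GFP+ (primed) than in 5C-Oct4GFP+ cells (3.0-fold, 2.88 to 3.13), against 16.1% of all genes tested, and none was at least 2-fold higher, against 13.7%. With shares like these, the counts say little about the members. The median of the members was -0.47, against 0.06. *Etv4* (1.91-fold, 1.72 to 2.12) and *Dusp6* (1.84-fold, 1.71 to 1.97) were higher but under 2-fold, whereas *Spry4* was 1.91-fold lower (1.67 to 2.19) and *Dusp5* 1.77-fold lower (1.51 to 2.06). *Dusp4* (1.10-fold higher, 0.984 to 1.23) and *Spred1* (1.02-fold lower, 0.94 to 1.11) did not differ beyond counting error. Markers differed in this comparison as well: 9 of 10 fibroblast markers and 5 of 5 listed as primitive endoderm were higher in the primed library. Their sums were 82.6 against 11.8 TPM and 178 against 2.04 TPM. Of the primed markers, 4 of 9, *T* and *Cer1* among them, were higher and 1 was lower. The part of these markers was not tested. The ETS factors parted here: *Etv4* was higher and *Etv5* lower in the primed library.

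Set against each other, the converted lines differed in 7 of 9 members, all at least 2-fold higher in 5C-Oct4GFP+ (primed) than in 5C-Oct4GFP+ (naive), against 22.2% of all genes tested higher and 16.7% lower. The median of the members was 1.94, against 0.14. *Dusp6* was 19.3-fold higher (15.7 to 24.1), *Dusp5* 25.1-fold (12.6 to 59.1), *Spry4* 6.15-fold (4.43 to 8.71), *Spry1* 4.25-fold (3.19 to 5.73), *Etv4* 3.93-fold (3.36 to 4.63) and *Spred1* 2.12-fold (1.89 to 2.37). The seventh was *Dusp4*, with a ratio of 173 (59.4 to 848). The call of *Spred1* was lost with FPKM and with median-ratio rescaling, which left 6. *Etv5* was 1.5-fold lower (1.43 to 1.58). *Spry2* did not differ beyond counting error (ratio 1.06, 0.956 to 1.16), and its sign turned under median-ratio rescaling. Here too the markers differed: 8 of 10 fibroblast markers (sum 82.6 against 16.6 TPM) and 4 of 5 primitive endoderm markers (178 against 2.95 TPM) were higher in the primed library, and 9 of 9 naive markers were lower, and their part was not tested. These comparisons share libraries with those above and are not independent of them.

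Libraries from unlike media could stand close to each other. Between 5C-Oct4GFP+ (naive) and mES-Oct4GFP+ cells, 8 members could be tested, of which 1 was at least 2-fold higher in the naive library (*Spry4*, ratio 4.80, 2.03 to 13.9, difference 1.06) and 1 lower (*Dusp5*, 3.70-fold, 1.58 to 9.72, difference -1.09), against 2.49% and 6.27% of all genes tested. Both are low genes, with at most 2.63 TPM in these libraries, and both calls were lost with a minimum of 5 TPM and with FPKM. The median of the 9 members was 0.08, against -0.16 for all genes tested. *Dusp6* was 1.98-fold higher in the naive library (1.31 to 3.07) and *Etv4* 1.43-fold (1.10 to 1.88). *Spry1*, *Spry2* and *Spred1* did not differ beyond counting error. Of 8 members tested, 6 lay within 2-fold between mES-Oct4GFP+ cells, with no MEK inhibitor listed, and cells kept with one. Only 8.77% of all genes tested passed 2-fold here, so that count says little about the members. *Dusp6* was among the 6 members within 2-fold, although only 3.63% of all genes tested were further up in the naive library. No more can be said from 1 library each.

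The primed libraries, one from reprogrammed MEFs and one from an embryonic stem cell line, were also close, and not only in the members. None of the 9 members differed by 2-fold between 5C-Oct4GFP+ (primed) and R1 ESCs-primed, against 2.3% of all genes tested higher and 5.09% lower. With shares this low, the count says little about the members. The median was -0.26, against -0.03. *Dusp6* was 1.08-fold higher (1.01 to 1.16) in 5C-Oct4GFP+ (primed), and the other 8 members were lower, most of all *Spry4* (1.78-fold, 1.53 to 2.07) and *Dusp4* (1.51-fold, 1.35 to 1.68). 9 of 10 fibroblast markers were also lower by at least 2-fold in 5C-Oct4GFP+ (primed), with sums of 82.6 and 235 TPM. Their part in the lower members was not tested.

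**Figure D3:**
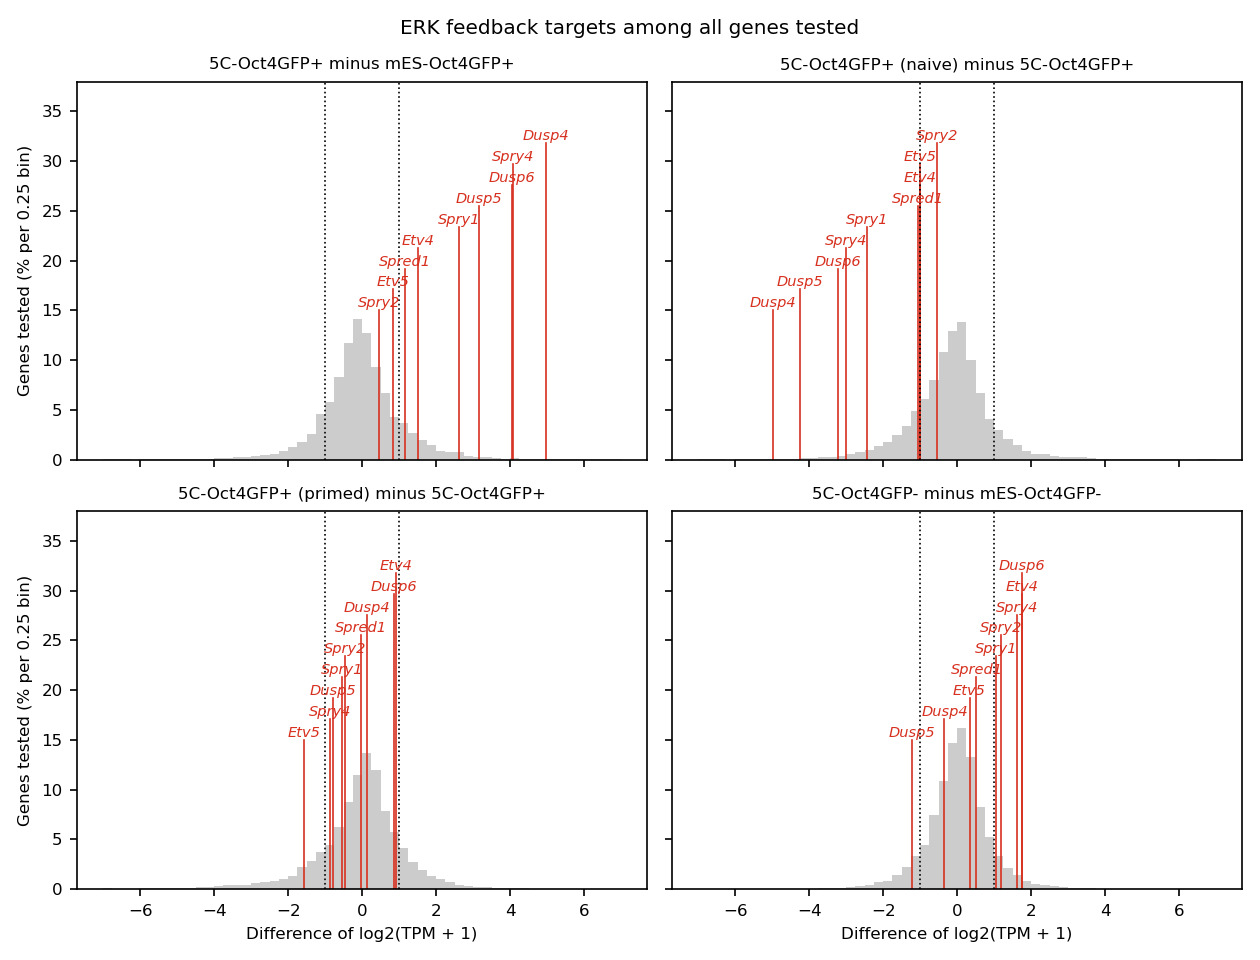
Distribution of the difference of log2(TPM + 1) over all genes tested (gray, percent of genes per bin) in 4 comparisons, with each member as a red line whose height has no meaning and dotted lines at 2-fold. In 5C-Oct4GFP+ against mES-Oct4GFP+ cells 7 lines lie beyond the upper dotted line, in naive against 5C-Oct4GFP+ cells 7 lie beyond the lower, in primed against 5C-Oct4GFP+ cells only Etv5 lies beyond a dotted line, and in Oct4GFP- cells 5 lie beyond the upper and Dusp5 beyond the lower.

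Relatives of the members, the other Dusp, Spred and Etv genes, showed how far the pattern reached within the families. Of 11 listed, 10 were in the tables. *Etv1*, the third ETS factor of this group, was highest in R1 ESCs-primed at 61.7 TPM, then 5C-Oct4GFP- at 54.7, 5C-Oct4GFP+ (primed) at 43.2, 5C-Oct4GFP+ at 25.4, mES-Oct4GFP- at 17.7, the naive library at 13.4 and mES-Oct4GFP+ at 10.4, an order close to that of *Etv4*. *Spred3* was again highest in primed cells, at 40.96 TPM in the R1 and 37.7 in the 5C-derived library, and lowest in the naive library at 1.56 and mES-Oct4GFP+ at 1.48, with 5.77 in 5C-Oct4GFP+ and 16.4 and 22.6 in the 5C and mES Oct4GFP- libraries. *Spred2* ranged from 18.4 TPM in the naive library to 62.0 in mES-Oct4GFP-. *Dusp1*, an immediate early phosphatase that acts on several MAP kinases, was at 225 TPM in mES-Oct4GFP-, against 30.9 in mES-Oct4GFP+ and 117 in 5C-Oct4GFP+, but only at 58.4 and 40.3 in the primed libraries, against 55.1 in the naive one.

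Some other Dusp genes departed from the members. *Dusp9*, a cytoplasmic ERK phosphatase, was highest in mES-Oct4GFP- at 42.2 TPM and mES-Oct4GFP+ at 33.7, and lowest in the naive library at 9.75 and 5C-Oct4GFP- at 9.11. *Dusp7*, also a cytoplasmic ERK phosphatase, stayed between 10.9 and 22.8 TPM. *Dusp10*, which acts on the stress kinases p38 and JNK, was lowest in 5C-Oct4GFP+ at 0.90 TPM, below 3.98 in mES-Oct4GFP+ and 5.37 in the naive library. *Dusp8* and *Dusp16*, of the same stress kinase branch, were highest in mES-Oct4GFP- at 13.2 and 29.8 TPM. *Dusp2* was at most 4.43 TPM. As for most members, *Dusp2*, *Dusp8* and *Dusp16* were at least 2-fold lower in mES-Oct4GFP+ than in mES-Oct4GFP- cells. All were also at least 2-fold higher in 5C-Oct4GFP+ (primed) than in naive cells, but none passed 2-fold between 5C-Oct4GFP+ and mES-Oct4GFP+ cells. In 5C-Oct4GFP+ against mES-Oct4GFP+ cells, 3 of 9 relatives tested were higher (*Dusp1*, *Spred3* and *Etv1*) and 1 was lower (*Dusp10*), against 13.7% and 13.5% of all genes tested. The relatives' median was 0.24, far under that of the members. In naive against 5C-Oct4GFP+ cells 3 of 9 were lower and 1 higher, against 17.5% and 10%. In primed against naive cells 7 of 10 were higher and none lower, against 22.2% and 16.7%.

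A list of 17 other genes known to be induced by ERK gave the wider picture. *Dusp1* is in this list as well as among the relatives, and is counted in both. In 5C-Oct4GFP+ against mES-Oct4GFP+ cells 12 of 17 were higher and none lower (median 1.64), against 13.7% and 13.5% of all genes tested. In naive against 5C-Oct4GFP+ cells 13 were lower and none higher (median -1.77), against 17.5% and 10%. In primed against naive cells 13 were higher and 1 lower (median 1.81), against 22.2% and 16.7%. Unlike the members, 7 of these genes were lower and 3 higher in primed than in 5C-Oct4GFP+ cells, against 16.1% and 13.7% of all genes tested. In 5C-Oct4GFP- against mES-Oct4GFP- cells 5 were lower and only *Ier3* was higher, against 10.1% and 9.68%. Among them, the immediate early factor *Egr1* was highest in 5C-Oct4GFP- at 568 TPM, then mES-Oct4GFP- at 500.1, 5C-Oct4GFP+ at 253, 5C-Oct4GFP+ (primed) at 83.8, R1 ESCs-primed at 64.9, the naive library at 0.50 and mES-Oct4GFP+ at 0.32. *Fos*, likewise immediate early, had the same order, from 821 and 815 TPM in the Oct4GFP- libraries and 228 in 5C-Oct4GFP+ down to 9.05 and 6.37 in the primed libraries, 1.87 in the naive library and 1.33 in mES-Oct4GFP+, so that it was low in the primed libraries too, where *Dusp6* and *Etv4* were highest. *Myc* was at 1884 TPM in mES-Oct4GFP- and 1622 in 5C-Oct4GFP- against 20.6 in the naive library, reads from the retrovirus included.

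**Figure D4:**
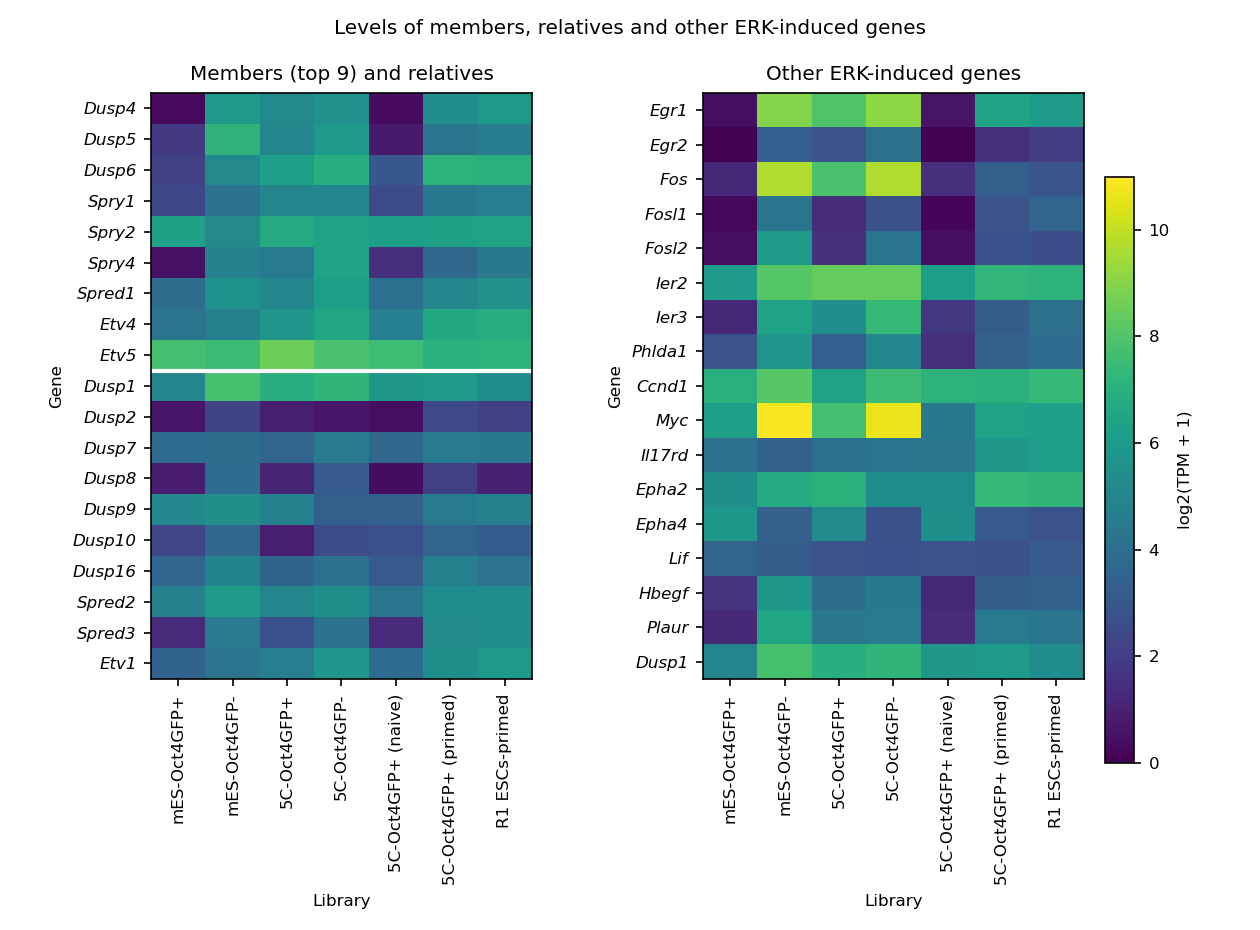
Level of the 9 members and their 10 relatives (left, divided by the white line) and of 17 other ERK-induced genes (right, with Dusp1 again) in the 7 libraries, as color for log2(TPM + 1). The mES-Oct4GFP+ and 5C-Oct4GFP+ (naive) columns are dark for most members and for Egr1 and Fos (0.32 to 1.87 TPM), whereas the primed columns are bright for Dusp6 and Etv4 but not for Fos (9.05 and 6.37 TPM).

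The genes of the cascade itself differed less than the members in the comparisons where most members passed 2-fold. Of 18 listed components from adaptors to ERK that were in the tables, at most 4 were higher and at most 3 lower in any of the 9 comparisons. Both maxima were in primed against naive cells, where 22.2% of all genes tested were higher and 16.7% lower. There the cascade genes moved about as often as genes at large. None passed 2-fold between the Oct4GFP- libraries, against 9.68% of all genes tested higher and 10.1% lower. In 5C-Oct4GFP+ against mES-Oct4GFP+ cells 1 was higher and 2 were lower (median 0.03), against 13.7% and 13.5% of all genes tested. *Mapk3*, which encodes ERK1, was highest in mES-Oct4GFP- at 307 TPM, then 5C-Oct4GFP- at 221, 5C-Oct4GFP+ (primed) at 151, R1 ESCs-primed at 123, 5C-Oct4GFP+ at 86.5, mES-Oct4GFP+ at 34.4 and the naive library at 30.1, and so had its lowest 2 values where most members had theirs. *Sos2*, an activator of Ras, went the other way, at 171 TPM in mES-Oct4GFP+ and 338 in the naive library against 45.9 in 5C-Oct4GFP+ and 21.6 in the 5C-derived primed library. *Gab1*, an adaptor, was at 89.9 and 99.3 TPM in mES-Oct4GFP+ and naive cells, 73.6 in 5C-Oct4GFP+ and 14.2 in the 5C-derived primed library.

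Of 8 other inhibitors of the cascade, none passed 2-fold between 5C-Oct4GFP+ and mES-Oct4GFP+ cells, against 13.7% of all genes tested higher and 13.5% lower. *Errfi1*, *Rasal2* and *Nf1* had the widest ranges, and all 3 were highest in mES-Oct4GFP-, at 47.9, 21.7 and 23.4 TPM. Of 9 FGF ligands and receptors, 3 of 8 tested (*Fgf5*, *Fgf15* and *Fgfr3*) were higher with 5C than with mES medium in Oct4GFP+ cells and none was lower, against the same shares. In naive against 5C-Oct4GFP+ cells, 6 of 8 tested were lower and none was higher, against 17.5% and 10% of all genes tested. *Fgf5*, which is also a primed marker, was at 175 and 139 TPM in the primed libraries and at 11.7 in 5C-Oct4GFP+, against 0.12 in mES-Oct4GFP+ and 0.09 in the naive library. *Fgf8* was at 157 and 208 TPM in the primed libraries and at 0.63 in 5C-Oct4GFP+. *Fgfr3* was highest in 5C-Oct4GFP- at 38.3 TPM, the library in which *Spry4* and *Spred1* were highest.

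Genes whose levels ran most like those of the members were sought among 8343 genes that reached 10 TPM in any library and had a range of at least 2-fold, by Pearson correlation of log2(TPM + 1) over the 7 libraries. The closest to the average of the members were *Spon1* (r = 0.997), *Igfbp2* (0.994), *Jph1* (0.992), *Fndc4* (0.988) and *Zfp467* (0.987). *Igfbp2*, an insulin-like growth factor binding protein and the most abundant of them, was at 128 TPM in mES-Oct4GFP+ and 148 in the naive library and between 586 and 918 in the other 5. The closest to *Dusp6* were *Mapk8ip1* (0.994), *Anapc1* (0.988), *Aldh9a1* (0.986), *Foxj1* (0.984) and *4931428F04Rik* (0.984). With 7 libraries and this many genes, such values are a description and no more.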

How the data were processed

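RNA was sequenced from TruSeq libraries on a MiSeq, with 1 library for each of 7 groups. The authors aligned the reads with Bowtie to a transcriptome of mm10 and quantified genes with RSEM, per the labels and the study's methods; versions and annotation were not given in the sources used here. Expected counts, as deposited, are estimates of reads per gene by RSEM and were rounded to whole numbers for counting intervals. The deposited TPM values, which the authors took as the measure of abundance, are counts per effective length scaled to a common sum, and the deposited FPKM values served as an alternative.

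Members, relatives and pathway lists were matched by symbol (28756 of 29267 genes had one). The members and lists were chosen with earlier results of these data known. With 1 library per group no test across genes was made, and no p-value is given. Differences are of log2(TPM + 1), for genes at 1 TPM or more in 1 or both of the libraries, and calls were made at 2-fold. Ratios carry exact Clopper-Pearson 95% intervals and levels exact Poisson intervals, computed with Python 3.11.15 and scipy 1.17.1 and checked on simulated data. Genes named were every member and relative, the 3 with the largest range of each other list, and the 5 most like the members' average and Dusp6; Ier3, Fgf15 and Pou5f1 were named after their values were seen. Gene coordinates are from GENCODE M21 (GRCm38). Alternatives were a pseudocount of 0.1, FPKM, median-ratio rescaling, a minimum of 5 TPM, no minimum and Spearman correlation; library-scaled counts (CPM) for Etv4 and Spred1 were added after seeing the data. Of the listed genes, Spry3, Rps6ka1 and Rps6ka3 were not matched and were not analysed here. Depth was 6108252 to 11496615 reads per library, at which 1 read on a member was worth 0.0276 to 0.215 TPM.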

Additional observations from a re-analysis of the deposited data

Results flagged for a closer look

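The differences of 2 members between 5C and mES medium had opposite signs in the sorted fractions. *Dusp4* was higher with 5C medium by 4.98 on the log2 scale in Oct4GFP+ cells (37.8 against 0.23 TPM), whereas in Oct4GFP- cells the difference was -0.34, under 2-fold (47.0 against 59.9 TPM). *Dusp5* was higher by 3.16 in Oct4GFP+ cells (31.5 against 2.63 TPM), whereas in Oct4GFP- cells the difference was -1.23 (59.6 against 141 TPM). With 1 library per group the difference between fractions was not tested. Of 13903 genes tested in both fractions, 2.11% were at least 2-fold higher with 5C medium in Oct4GFP+ and at least 2-fold lower in Oct4GFP- cells. Of the members this holds for *Dusp5* alone.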

How the results depend on the processing

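Of 243 member differences recomputed with a pseudocount of 0.1, FPKM or median-ratio rescaling, 223 stayed within their counting interval, 20 moved beyond it, and none of the 39 called ones turned its sign. With median-ratio rescaling 4 uncalled ones near 0 turned theirs: *Spry1* between the 5C fractions, *Spry2* for primed against naive cells, and *Spry2* and *Etv5* for naive against mES-Oct4GFP+ cells. Between 5C-Oct4GFP+ and 5C-Oct4GFP- cells the members past 2-fold fell from 2 to 1 with FPKM and to 1 with median-ratio rescaling, and the members' median was -0.45 with that rescaling. Between 5C-Oct4GFP+ (naive) and mES-Oct4GFP+ cells they fell from 2 to 0 with FPKM and to 0 with a minimum of 5 TPM. With FPKM and with median-ratio rescaling they fell from 7 to 5 between 5C-Oct4GFP+ (naive) and 5C-Oct4GFP+ cells, where *Spred1* came to -0.97 and -0.94 and *Etv4* to -0.93 and -0.89, and from 7 to 6 between the converted lines, where *Spred1* came to 0.94 and 0.85. The cause was not tested. Median-ratio rescaling moved the median of all genes tested from -0.25 to -0.02 between the 5C fractions, from -0.15 to 0.03 between the mES fractions, from -0.16 to 0.00 for naive against mES-Oct4GFP+ cells, from -0.10 to 0.02 for naive against 5C-Oct4GFP+ cells and from 0.14 to -0.05 for primed against naive cells. In library-scaled counts (CPM), which ignore isoform length, *Etv4* differed by -0.99 in place of -0.56 between the mES fractions and by 1.91 in place of 1.51 between 5C-Oct4GFP+ and mES-Oct4GFP+ cells, and *Spred1* by -0.95 in place of -1.03 between the 5C fractions, which ends that call. No other call of *Etv4* or *Spred1* was lost, and none turned its sign. By Spearman's rho, 2 of the 5 genes named as most like the members and 2 of the 5 most like *Dusp6* were still among the 5 closest. With no minimum TPM the share of all genes past 2-fold fell, for example from 27.2% to 14.1% for 5C-Oct4GFP+ against mES-Oct4GFP+ cells. Leaving out a replicate was not possible with 1 library per group. No paired analysis was possible because each group had 1 library and no replicate numbers were shared. Depth limits *Dusp4* most, with 2 and 3 reads in its lowest libraries.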
